A study of Caenorhabditis elegans with 8 samples.

Results

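The aminoacyl-tRNA synthetases are the enzymes that load each amino acid onto its tRNA. Their genes were taken from the count table of dissected Caenorhabditis elegans intestines by the pattern of their WormBase names, a letter for the amino acid followed by ars and a number. This gave 33 genes of the 20392 in the table, covering 20 amino acids. Of these, 32 were found through the Ensembl symbol, and the last, mars-2, through its sequence name in RefSeq. The genes were divided by their numbered names and textbook knowledge into 13 cytosolic genes, 12 mitochondrial genes and 8 genes that are the only one of the pattern for their amino acid in the table. The number usually tells the compartment, 1 for the cytosol and 2 for the mitochondrion, with exceptions that were placed by hand. In alanine, aars-2 was counted as cytosolic and aars-1 as mitochondrial, and fars-3 was placed beside fars-1 because these genes encode the subunits of the cytosolic phenylalanyl enzyme. The compartment of no gene was measured here.

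A synthetase activates its amino acid with ATP and transfers it to the end of the matching tRNA, and the ribosome then reads the codon through that tRNA without checking the amino acid again. The cytosolic enzymes serve the ribosomes that translate nuclear genes, while the mitochondrial enzymes are made in the cytosol, imported, and serve the few proteins that the mitochondrial genome encodes. Some synthetase genes supply both compartments, as those for glycine and lysine do in mammals. When charged tRNA runs short, uncharged tRNA activates the kinase GCN2, which slows general translation. In the C. elegans intestine of an adult hermaphrodite, translation is dominated by yolk proteins, the vitellogenins, which are secreted and taken up by oocytes.

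The study asked how fasting changes the organisation of the intestinal genome and the transcripts of the same tissue. The libraries came from wild-type N2 (Bristol) hermaphrodites grown on OP50 bacteria to day 1 of adulthood, with 4 libraries per group. Fasted animals were kept in M9 buffer on a roller for 12 h at 20 °C, and fed animals were taken from the plates and washed in M9 shortly before dissection. The label on growth, common to all 8 libraries, also names plates with auxin, although wild-type animals carry no auxin-responsive degradation system. Each library held the RNA of pooled intestines, amplified as cDNA with a SMART-seq kit. Absence of food, time spent in buffer and the greater age at dissection came together in this design and cannot be told apart.

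The libraries held 25310202 to 33846215 counts in the fasted group and 20964161 to 26372847 in the fed group. The 6 vitellogenin genes took 66.5% to 67.8% of the counts in fasted libraries and 71.8% to 73.2% in fed libraries. Intestine markers were detected in every library, with a summed level of 3424 to 4398 RPM (a gene's counts per 1000000 counts of the library) in fasted and 7820 to 8700 in fed libraries over 14 genes. Most of this sum was cpr-1. By gene, 5 of the 14 (elt-2, elt-7, ges-1, ftn-1 and eps-8) were called higher and 6 lower. The lower ones were cpr-1, asp-1, act-5, pept-1, gst-4 and erm-1. Over all tested genes 52.9% were called higher and 9.97% lower. The median log2 fold change of the 14 markers was -0.46, beside 1.23 over all tested genes. Under TMM scaling, described below, only ftn-1 was called higher and 9 were lower. Markers of other tissues were uneven among fasted libraries. The 12 body wall muscle markers summed to 1513, 281, 37.7 and 2009 RPM in fasted libraries 1 to 4 and to 10.6 to 14.9 in fed libraries, where myo-3, tnt-2 and hlh-1 had no count. The 8 pharynx markers summed to 252, 71.2, 68.9 and 445 RPM in fasted libraries 1 to 4. In fed libraries they summed to 17.5 to 24.3 RPM, and 4 of the 8 had no count. Nearly all of the sum in fed libraries and in fasted libraries 2 and 3 was pha-4. This gene had 51.6 to 68.2 RPM in fasted and 17.2 to 24.1 RPM in fed libraries. The paper describes its promoter as active in intestine, so pha-4 does not mark the pharynx alone. The 12 germline and oocyte markers summed to 31.5 to 381 in fasted and 1.37 to 7.0 in fed libraries, and 10 neuronal markers to 15 to 73.9 and 8.65 to 13.1. The 7 hypodermis markers summed to 1.73 to 36.8 and 0.764 to 3.39. The 8 sperm marker genes stayed at or below 0.158 in fasted and 0.417 in fed libraries. The part of these other tissues in the synthetase results was not tested beyond leaving out fasted libraries 1 and 4, which had the most muscle signal.

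All 33 synthetase genes passed the filter on low counts, so none was left out of the test. Libraries were scaled to their total counts, and a gene was called where its Benjamini-Hochberg adjusted p in edgeR's quasi-likelihood test was under 0.01 and its fold over 1.5. By this rule 25 synthetase genes (75.8%) were higher in fasted intestines, 1 was lower and 7 did not pass. The background was high: of the 7379 genes tested, 52.9% were called higher and 9.97% lower under the same rule. The median log2 fold change of the synthetase genes was 1.21, beside 1.23 over all tested genes. Under TMM scaling, which assumes that most genes do not change, 6 were higher and 3 lower, with a median of 0.15 beside 0.16 over all tested genes, of which 19.6% were called higher and 21.5% lower. The shift between the scalings was 1.07 on the log2 scale for the median gene, and it decided the call of most members. As a group, therefore, the synthetase genes sat at the median of the tested genes in both scalings, and the description that follows concerns the members that lay away from it. This depends on the filter: with the other filters given at the end, the family lay below the median of all genes. In bulk tissue, fewer cells of a type and less RNA per cell cannot be told apart.

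**Figure D1:**
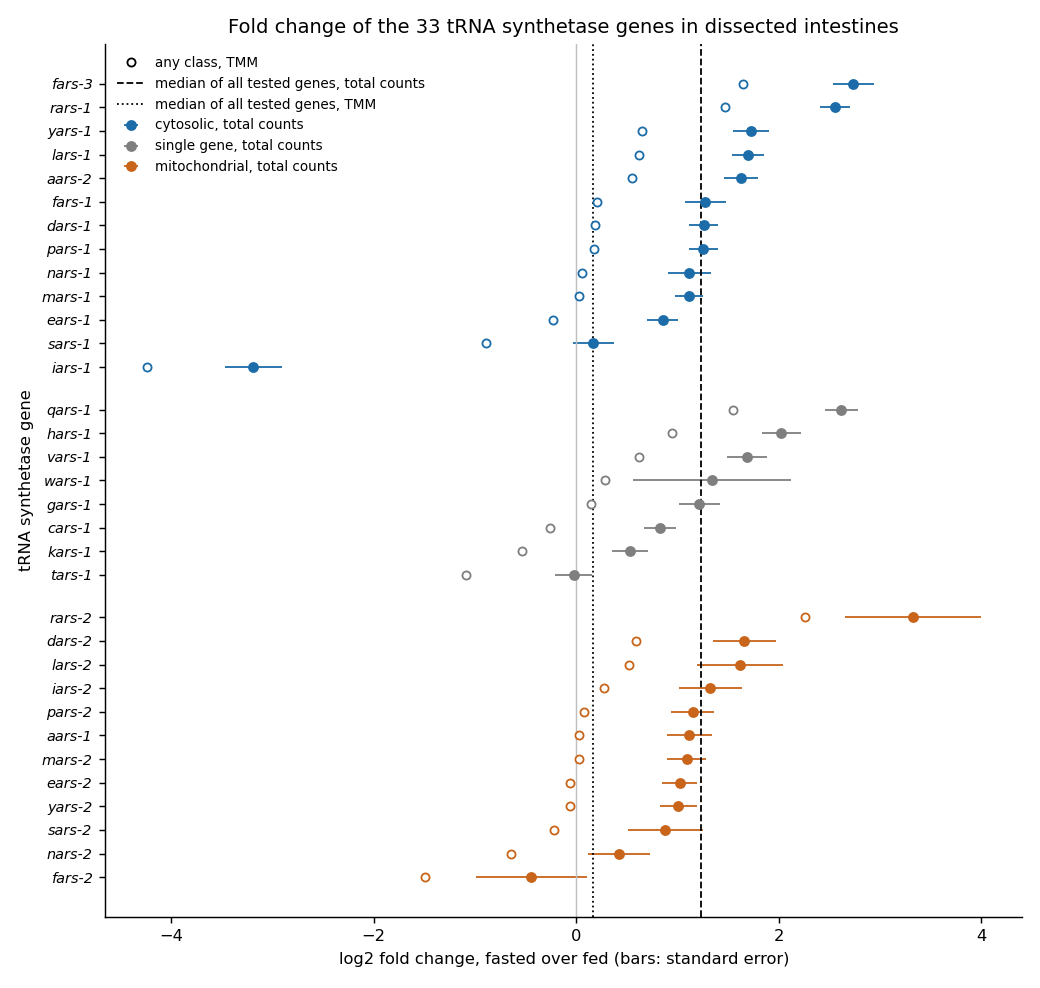
Log2 fold change of fasted over fed for the 33 tRNA synthetase genes, 1 row per gene, grouped by class. Filled points with standard error bars are on total counts, open points are on TMM scaling, and the dashed and dotted lines mark the medians of all tested genes (1.23 and 0.16). The gene iars-1 lies at -3.19, while fars-3, rars-1, qars-1 and rars-2 lie at or above 2.55 on total counts.

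The one synthetase gene called lower was iars-1 (WBGene00002152), which encodes the cytosolic isoleucyl-tRNA synthetase and lies on the forward strand of chromosome IV at 10368601 to 10373136 in the WBcel235 annotation. It had 35.0, 32.4, 34.2 and 39.4 RPM in fasted libraries 1 to 4, against 261, 193, 537 and 293 RPM in fed libraries 1 to 4. The groups were far apart: the lowest fed library held several times the level of the highest fasted one, and the fed libraries also differed widely among themselves. The means were 35.2 ± 2.95 RPM in fasted and 321 ± 150 RPM in fed intestines (SD, n = 4 each), which is 9.11-fold lower in fasted intestines. The log2 fold change was -3.19 (SE 0.285, adjusted p = 3.79e-06 by edgeR's quasi-likelihood test), at percentile 2.20 of all tested genes, and -4.24 under TMM scaling. Leaving out each library in turn gave -3.37 to -2.82, and the value without fasted libraries 1 and 4 was -3.27.

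In fed intestines iars-1 was by far the synthetase gene with the most reads. Per kilobase of exon (RPKM, which allows levels of different genes to be compared), it stood at 9.25 ± 0.775 RPKM in fasted intestines, rank 16, and at 84.3 ± 39.4 RPKM in fed intestines, rank 1 of 33 (SD, n = 4 each). It took 4.42%, 4.02%, 4.59% and 5.05% of the summed RPM of the 33 genes in fasted libraries 1 to 4, and 45.1%, 37.5%, 56.7% and 44.1% in fed libraries 1 to 4. The shares did not overlap between the groups, and fed library 3 had the highest of all. Because 1 gene made up so much of the fed total, the sum over the family hid what the other genes did. The 33 genes summed to 781 ± 26.0 RPM in fasted and 676 ± 191 RPM in fed intestines, whereas the 32 genes without iars-1 summed to 745 ± 26.8 RPM in fasted and 355 ± 44.0 RPM in fed intestines (SD, n = 4 each).

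**Figure D2:**
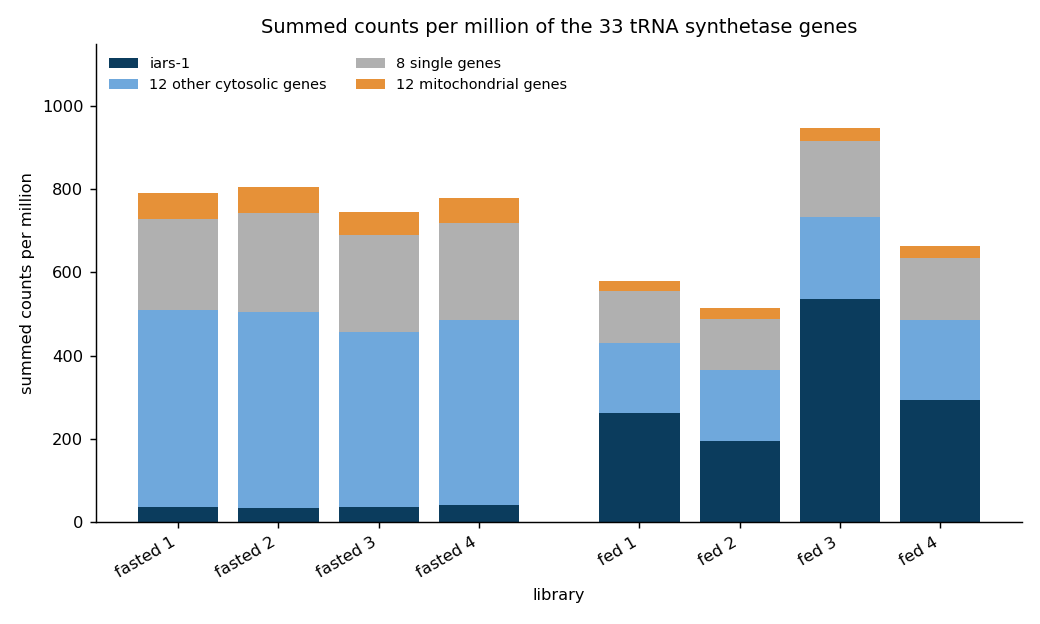
Summed RPM of the 33 tRNA synthetase genes in each of the 4 fasted and 4 fed libraries, divided into iars-1, the 12 other cytosolic genes, the 8 single genes and the 12 mitochondrial genes. The iars-1 segment is 32.4 to 39.4 in fasted libraries and 193 to 537 in fed libraries, and each of the other segments is taller in every fasted library than in any fed library.

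The next genes by level per length in fed intestines were sars-1, tars-1 and kars-1, and none of them was called higher. The gene sars-1, for the cytosolic seryl-tRNA synthetase, had 52.4, 58.0, 54.5 and 52.1 RPM in fasted libraries 1 to 4, against 41.3, 31.3, 59.3 and 61.1 RPM in fed libraries 1 to 4. The only threonyl gene of the pattern, tars-1, had 64, 63.8, 60.7 and 55.5 RPM in fasted libraries, against 54.5, 46.0, 84.2 and 64 RPM in fed libraries. For kars-1, the lysyl gene, the values were 58.5, 71.9, 71.7 and 70.1 RPM in fasted libraries and 36.4, 42.2, 62.8 and 46.7 RPM in fed libraries. In all 3 genes the groups overlapped, the fasted libraries were tight, and the fed libraries were spread with fed library 3 at or near the top. Their log2 fold changes were 0.17 (SE 0.203) for sars-1, -0.03 (SE 0.18) for tars-1 and 0.53 (SE 0.175) for kars-1. The adjusted p of kars-1 was 0.0174 in edgeR's test, and without fed library 3 it was called higher at 0.70. Relative to the median gene all 3 were low, and under TMM scaling tars-1 (-1.09) and sars-1 (-0.89) were called lower while kars-1 (-0.53) was not.

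In fasted intestines the order was different, with rars-1, the cytosolic arginyl gene (WBGene00004679, chromosome III, 4914088 to 4917177 on the reverse strand in WBcel235), at the top. It stood at 34.4 ± 3.5 RPKM in fasted intestines, rank 1, and at 5.85 ± 0.625 RPKM in fed intestines, rank 7. However, sars-1 at 32.9 ± 1.64 RPKM and kars-1 at 31.9 ± 3.00 RPKM followed within the spread of the fasted libraries, so these 3 are not separated. The fourth, tars-1, was at 24.0 ± 1.56 RPKM in fasted intestines. The lowest gene per length in fasted intestines was wars-1, the tryptophanyl gene, at 0.282 RPKM, followed by the mitochondrial genes fars-2 at 0.376 and lars-2 at 0.701 RPKM. In fed intestines the lowest were rars-2 at 0.103, wars-1 at 0.110 and lars-2 at 0.229 RPKM.

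**Figure D3:**
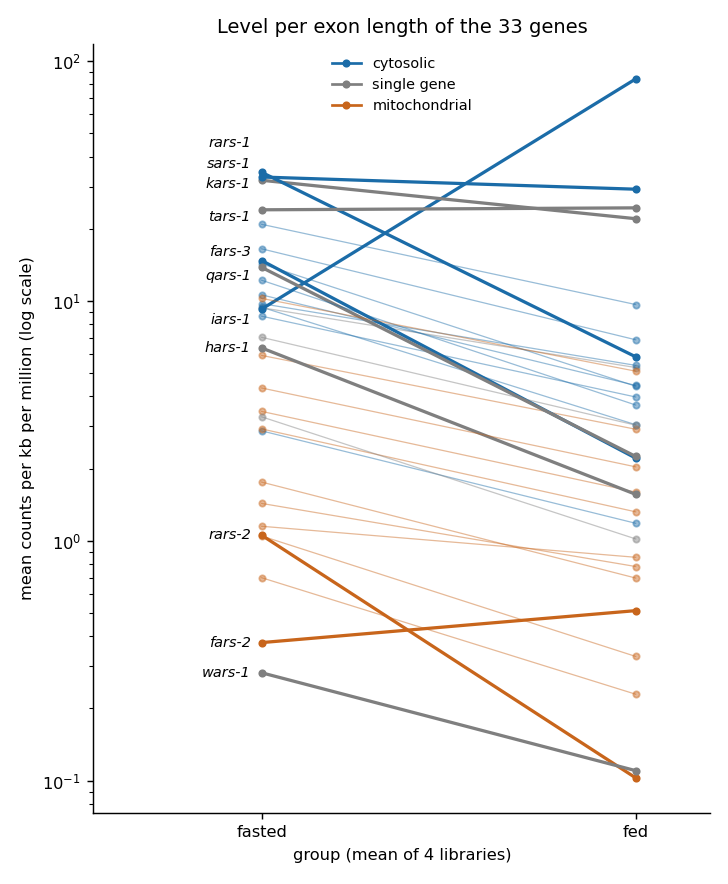
Mean RPKM in fasted (left) and fed (right) intestines for the 33 genes on a log axis, each line 1 gene, coloured by class. Most lines are lower on the fed side, and iars-1 crosses them from 9.25 in fasted to 84.3 in fed intestines.

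The 6 members with the highest log2 fold changes included 3 cytosolic genes, 2 single genes and 1 mitochondrial gene. For rars-1 the libraries gave 95.9, 83.6, 80.7 and 75.8 RPM in fasted intestines, against 13.3, 16.5, 13.2 and 14.3 RPM in fed intestines. The single glutaminyl gene qars-1 had 34.1, 32.7, 31.3 and 39.7 RPM in fasted libraries, against 5.73, 4.96, 6.68 and 5.08 RPM in fed libraries. Both genes were separated by a wide gap, with a small spread among libraries in either group. The log2 fold changes were 2.55 (SE 0.144, adjusted p = 1.87e-07) for rars-1 and 2.62 (SE 0.166, adjusted p = 3.79e-07) for qars-1 in edgeR's quasi-likelihood test, and 1.47 and 1.55 under TMM scaling, also called. They stood at percentiles 83.1 and 84.0 of all tested genes, so rises of this size were not rare in these libraries.

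The gene hars-1, for the histidyl enzyme, had 9.95, 12.6, 11.9 and 14.2 RPM in fasted libraries, against 2.54, 2.91, 2.82 and 3.68 RPM in fed libraries. The cytosolic tyrosyl gene yars-1 had 30.7, 27.5, 27.3 and 32.8 RPM in fasted libraries, against 6.60, 9.68, 10.5 and 8.99 RPM in fed libraries. Neither gene overlapped between the groups, and both rose, by 2.03 (SE 0.195) and 1.73 (SE 0.176) on the log2 scale. The cytosolic leucyl gene lars-1 followed at 1.70 (SE 0.159), with 53.8 ± 4.02 RPM in fasted and 16.6 ± 2.94 RPM in fed intestines (SD, n = 4 each). Under TMM scaling hars-1 (0.95), yars-1 (0.65) and lars-1 (0.62) were still called higher, and yars-1 was not with the replicate number as a block.

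**Figure D4:**
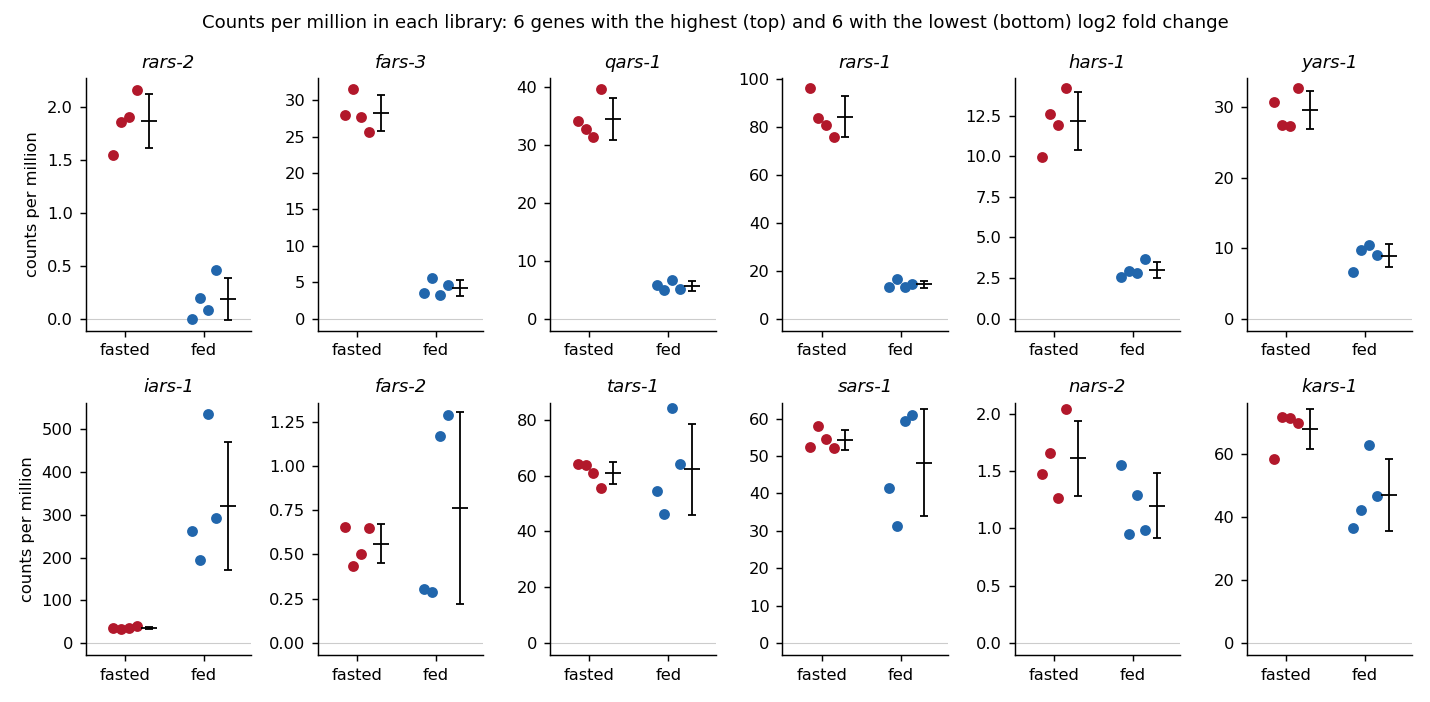
RPM in each fasted (left, red) and fed (right, blue) library for the 6 genes with the highest log2 fold change (top) and the 6 with the lowest (bottom), with the mean and SD beside the points. In the top row no fasted point overlaps a fed point, while in the bottom row only iars-1 separates, with 32.4 to 39.4 in fasted and 193 to 537 in fed libraries.

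The cytosolic phenylalanyl enzyme is built from subunits encoded by fars-1 and fars-3, and the 2 transcripts rose by different amounts. The gene fars-3 had 27.9, 31.6, 27.6 and 25.6 RPM in fasted libraries, against 3.49, 5.63, 3.26 and 4.55 RPM in fed libraries, a log2 fold change of 2.74 (SE 0.204, adjusted p = 1.15e-06 by edgeR). Its partner fars-1 had 4.79, 6.28, 4.96 and 4.90 RPM in fasted libraries, against 2.01, 1.86, 2.25 and 2.50 RPM in fed libraries, a log2 fold change of 1.28 (SE 0.200). Within a library, and per length, fars-3 stood at 5.55, 4.79, 5.31 and 4.98 times fars-1 in fasted libraries and at 1.65, 2.88, 1.38 and 1.73 times in fed libraries. The ratio was thus nearly constant among fasted libraries and lower in every fed library. This ratio was looked at after the values were seen and is given without a test.

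Of the other cytosolic genes, aars-2, dars-1, ears-1, mars-1, nars-1 and pars-1, for alanine, aspartate, glutamate, methionine, asparagine and proline, all rose, with log2 fold changes from 0.86 (ears-1) to 1.63 (aars-2). None of these 6 was called under TMM scaling. In all, 11 of the 13 cytosolic genes (84.6%) were higher and 1 (7.69%) lower on total counts, with a median of 1.26. Over all tested genes the shares were 52.9% and 9.97%, with a median of 1.23. Under TMM scaling 4 (30.8%) were higher and 2 (15.4%) lower, with a median of 0.18. Over all tested genes the TMM shares were 19.6% and 21.5%, with a median of 0.16. Without fasted libraries 1 and 4 the counts on total scaling were again 11 and 1.

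In mammals 9 of the synthetase activities are held together in a large multi-synthetase complex, those for glutamate, proline, isoleucine, leucine, methionine, glutamine, arginine, lysine and aspartate. The worm genes for these were ears-1, pars-1, iars-1, lars-1, mars-1, qars-1, rars-1, kars-1 and dars-1, a set that was put together after the values were seen. On total counts 7 of the 9 were higher and 1 lower, beside 52.9% and 9.97% of all tested genes. The median log2 fold change was 1.25, against 1.21 for the whole family and 1.23 for all tested genes. The set held both iars-1, the gene that was lower, and qars-1 and rars-1, which were among the genes that rose most. Under TMM scaling 3 were higher and 1 lower, beside 19.6% and 21.5% of all tested genes.

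The 8 genes with no partner of the same name pattern in the table were cars-1, gars-1, hars-1, kars-1, qars-1, tars-1, vars-1 and wars-1. Of these, 5 (62.5%) were higher and none lower on total counts, beside 52.9% and 9.97% of all tested genes. Their median was 1.28, beside 1.23 over all tested genes. Under TMM scaling 2 (25%) were higher and 1 (12.5%) lower, beside 19.6% and 21.5% of all tested genes. Beside hars-1 and qars-1, the cysteinyl gene cars-1 rose by 0.83, the glycyl gene gars-1 by 1.21 and the valyl gene vars-1 by 1.69 on the log2 scale, and none of these 3 was called under TMM scaling. The gene wars-1 rested on 16, 10, 28 and 15 counts in fasted and 0, 6, 2 and 14 counts in fed libraries, and its log2 fold change of 1.34 had an SE of 0.781 and moved between 0.92 and 2.26 when single libraries were left out. A second valyl-tRNA synthetase gene is known as glp-4, a name outside the pattern. It had 13.1 ± 0.324 RPM in fasted and 13.2 ± 1.45 RPM in fed intestines (SD, n = 4 each), a log2 fold change of -0.01 (SE 0.145), and was called lower under TMM scaling at -1.08.

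The mitochondrial genes were expressed at lower levels per length, with a median of 1.59 RPKM in fasted and 0.817 RPKM in fed intestines, against 12.2 and 4.44 RPKM for the cytosolic genes. Of the 12, 9 (75%) were higher on total counts and none lower, beside 52.9% and 9.97% of all tested genes. Their median log2 fold change was 1.10, beside 1.23 over all tested genes. Under TMM scaling none was called in either direction, while 19.6% of all tested genes were higher and 21.5% lower. The TMM median was 0.026, beside 0.16 over all tested genes. By DESeq2 1 was called higher and none lower. Without fasted libraries 1 and 4, 6 remained among those called higher, since dars-2, iars-2 and lars-2 no longer passed.

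The genes aars-1, ears-2, mars-2, pars-2 and yars-2 moved close to one another, with log2 fold changes between 1.01 and 1.15. The mitochondrial tyrosyl gene yars-2 was the most abundant of the class per length, and had 14.5, 15.5, 14.6 and 13.4 RPM in fasted libraries, against 5.99, 6.15, 9.37 and 7.28 RPM in fed libraries. The isoleucyl gene iars-2 had 6.99, 4.07, 6.09 and 6.0 RPM in fasted libraries, against 2.65, 1.43, 3.54 and 1.59 RPM in fed libraries. Both genes were higher in every fasted library than in any fed one, and the log2 fold changes were 1.01 (SE 0.182) and 1.33 (SE 0.310). The value of pars-2 is less certain, since part of its exons is shared on the same strand with another annotated gene, as it is for iars-2 and mars-1. In all, 12 members overlap a gene on the opposite strand, iars-1, rars-1, sars-1 and tars-1 among them, and the library kit was not stated to keep the strand. The gene opposite iars-1 had at most 22 counts in any library, against at least 820 for iars-1. The gene opposite iars-2, which shares 138 exon bases with it, had 36 to 7889 counts, against 30 to 213 for iars-2, so the values of iars-2 and of the pair ratio that uses it are less certain.

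The remaining mitochondrial genes had few reads. The arginyl gene rars-2 had 1.54, 1.86, 1.90 and 2.16 RPM in fasted libraries, against 0.00, 0.191, 0.0805 and 0.455 RPM in fed libraries, which were 0, 4, 2 and 12 counts. Its groups did not overlap and its log2 fold change was the highest of the family at 3.32 (SE 0.670, adjusted p = 0.00107 by edgeR). However, leaving out single libraries moved this value between 2.90 and 4.37, and the gene passed the filter on low counts only through its fasted libraries. The asparaginyl gene nars-2 had 1.48, 1.66, 1.27 and 2.04 RPM in fasted libraries, against 1.56, 0.954, 1.29 and 0.986 RPM in fed libraries, with overlapping groups and a log2 fold change of 0.43 (SE 0.306). The phenylalanyl gene fars-2 had 0.657, 0.435, 0.50 and 0.650 RPM in fasted libraries, against 0.303, 0.286, 1.17 and 1.29 RPM in fed libraries. Here the fed libraries split, with 2 below and 2 above all fasted ones, and the log2 fold change of -0.44 had an SE of 0.544. The seryl gene sars-2 did not pass either, at 0.88 (SE 0.370), whereas dars-2 (1.66) and lars-2 (1.62) did.

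Read against the background of separation, 25 members had every fasted library above every fed library and 1 had every fasted library below, while over all tested genes these shares were 58.5% and 11.1%. The separated genes counted 11 higher and 1 lower among the cytosolic, 9 and 0 among the mitochondrial, and 5 and 0 among the single genes.

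To compare the compartments without any scaling between libraries, the counts of each cytosolic gene were divided by those of the mitochondrial gene for the same amino acid within a library. There were 13 such pairs for 12 amino acids, since fars-1 and fars-3 were each set against fars-2. The cytosolic gene had more counts than the mitochondrial one in all 13 pairs in every fasted and every fed library. These counts were not divided by gene length. Per kilobase the order was reversed for tyrosine in fed intestines, with means of 3.68 RPKM for yars-1 and 5.10 RPKM for yars-2. The ratio of the pair did not overlap between the groups in 4 pairs, 3 with a higher ratio in fasted libraries and 1 with a lower ratio. How often ratios of other gene pairs do not overlap was not counted, so whether 4 of 13 is unusual cannot be told. Each of the 4 had p = 0.0286 in an exact two-sided permutation test over 70 relabellings, the smallest p this design allows. After Benjamini-Hochberg adjustment over the 13 pairs this became 0.0929 in the exact test, so no pair passed the adjusted threshold, and with 13 pairs and 4 against 4 libraries a single pair could not have done so.

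The pair for isoleucine changed most, with log2 ratios of iars-1 over iars-2 of 2.32, 2.99, 2.49 and 2.71 in fasted libraries and 6.61, 7.05, 7.24 and 7.5 in fed libraries. The cytosolic gene had 6.17-fold more counts than the mitochondrial one in fasted intestines and 137-fold more in fed intestines, a difference of -4.48 in log2 ratio. The opposite direction was seen in phenylalanine. The log2 ratio of fars-3 over fars-2 was 5.38, 6.12, 5.74 and 5.27 in fasted libraries against 3.44, 4.19, 1.47 and 1.8 in fed libraries, a difference of 2.90, and that of fars-1 over fars-2 differed by 1.41. Both phenylalanyl ratios rest on the 6 to 34 counts of fars-2 in fed libraries and share that gene. For tyrosine, whose genes were closest in level, yars-1 over yars-2 had log2 ratios of 1.09, 0.83, 0.90 and 1.29 in fasted libraries and 0.14, 0.65, 0.16 and 0.30 in fed libraries, a difference of 0.72.

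**Figure D5:**
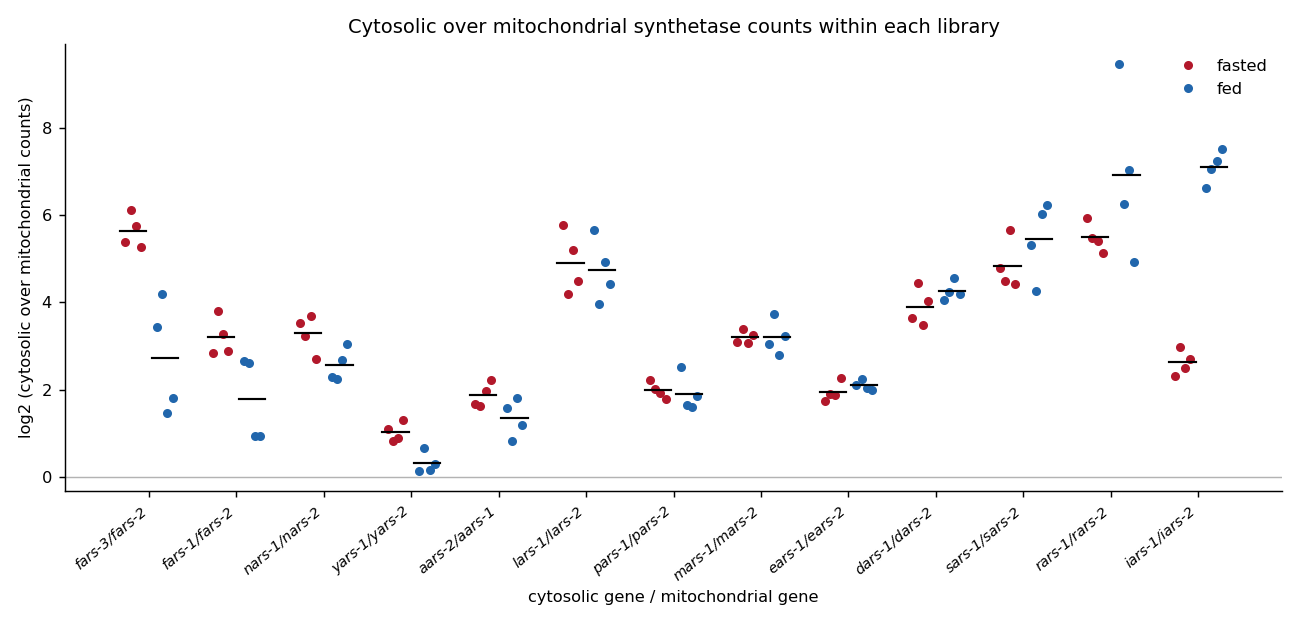
Log2 ratio of cytosolic over mitochondrial counts within each fasted (left, red) and fed (right, blue) library for the 13 pairs, with a line at the mean of each group. The isoleucine pair has a mean of 2.63 in fasted and 7.10 in fed libraries, the pairs of fars-3, fars-1 and yars-1 are higher in every fasted library, and the other 9 pairs overlap.

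In the other 9 pairs the groups overlapped, and the differences in log2 ratio lay between -1.43 for arginine (rars-1 over rars-2) and 0.72 for asparagine (nars-1 over nars-2). The pair for methionine had nearly the same mean in both groups, 3.21 ± 0.146 in fasted and 3.20 ± 0.396 in fed libraries (SD, n = 4 each). The arginine ratio depended on the low counts of rars-2: with 5 counts added to both genes in place of 0.5, its difference was 0.0025. Summed over the classes, the cytosolic genes had 8.06, 7.91, 8.13 and 8.26 times the counts of the mitochondrial ones in fasted libraries, and 17.5, 13.4, 22.5 and 17.0 times in fed libraries. This was a difference of -1.10 in log2 ratio, with no overlap, and it came with iars-1. Without iars-1, an alternative chosen after seeing the data, the ratios were 7.51, 7.40, 7.52 and 7.6 in fasted and 6.89, 6.31, 6.03 and 6.78 in fed libraries, a difference of 0.21 in the other direction.

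Synthetases also fall into 2 structural classes that are unrelated in fold and bind ATP differently. Of the 16 class I genes, 14 were higher and 1 (iars-1) lower on total counts, with a median of 1.33. Of the 17 class II genes, 11 were higher and none lower, with a median of 1.15. Under TMM scaling class I had 4 higher and 1 lower, and class II had 2 higher and 2 lower. Over all tested genes 52.9% were higher and 9.97% lower on total counts, with a median of 1.23. Under TMM scaling these shares were 19.6% and 21.5%. A difference between the structural classes was not tested. The genes lay on 5 chromosomes, with 10 on chromosome I, 5 on II, 6 on III, 8 on IV and 4 on V. Among the members with the largest changes, rars-1 lay on III, fars-3 on II and both iars-1 and qars-1 on IV.

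The other genes of tRNA use and protein synthesis were counted for comparison, from lists chosen with earlier results of these data known. Cytosolic ribosomal protein genes moved together, with 77 of 80 tested (96.25%) higher and none lower on total counts. Over all tested genes the shares were 52.9% and 9.97%, with a median log2 fold change of 1.23. The median of these ribosomal genes was 1.85. Their extremes were rpl-11.1 (4.85) and rpl-24.2 (3.93), both at low levels, and rpl-7A and rpl-3 (1.28 and 1.29). Under TMM scaling 21 (26.25%) were higher and none lower, beside 19.6% and 21.5% of all tested genes. Of 49 mitochondrial ribosomal protein genes tested, 22 were higher and 1, mrpl-44 (-0.71), was lower, with a median of 1.31. The share called higher was 44.9%, beside 52.9% of all tested genes. Under TMM scaling 7 (14.3%) were higher and 1 (2.04%) lower, beside 19.6% and 21.5% of all tested genes. The highest of them were mrps-2 (2.75) and mrps-26 (2.54), and mrpl-16 (-0.30) was the second lowest and not called.

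The genes listed for processing and modifying tRNAs had a higher median fold change than the synthetases. Of 18 tested, 14 (77.8%) were higher and 1 (5.56%) lower on total counts, beside 52.9% and 9.97% of all tested genes. The median log2 fold change was 2.86, beside 1.23 over all tested genes. Under TMM scaling 11 (61.1%) were higher and 1 (5.56%) lower, beside 19.6% and 21.5% of all tested genes. Some of these genes passed the filter on low counts only through their fasted libraries. In fed libraries gro-1 had 0.0759 to 0.282 RPM and nsun-2 had 0.0954 to 0.228 RPM. The shares called higher and the median therefore partly follow from the filter. The highest were elpc-4 (4.67), a subunit of the Elongator complex that modifies the wobble base, and tut-1 (4.18), which thiolates the same position. The one that fell was hoe-1 (-1.59), the nuclease that trims the tail of precursor tRNAs, with 14.9 ± 2.57 RPM in fasted and 45.0 ± 26.5 RPM in fed intestines, and rtcb-1 (0.60), the tRNA ligase, did not pass.

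Genes listed around the response to uncharged tRNA and amino acids went both ways. Of 8 tested, 2 (25.0%) were higher and 2 (25.0%) lower on total counts, beside 52.9% and 9.97% of all tested genes. Under TMM scaling 1 was higher and 4 were lower, beside 19.6% and 21.5% of all tested genes. The list also held the kinase gene pek-1, at 0.05 and not called on total counts. Under TMM scaling pek-1 was 1 of the 4 called lower, at -1.02. The transcription factor atf-4 (-1.48) was lower, with 50.3 ± 6.81 RPM in fasted and 141 ± 7.84 RPM in fed intestines, and so was asns-2 (-3.13), an asparagine synthetase gene. The highest were cth-1 (2.87), a cystathionine gamma-lyase gene that did not pass, and gcn-1 (2.23), which encodes the activator of the uncharged-tRNA sensor. The value of cth-1 came from fasted libraries 2 and 3, at 310 and 328 RPM. Fasted libraries 1 and 4 had 25.0 and 22.7 RPM, within the range of the fed libraries (9.37 to 42.7 RPM). The sensor kinase gene gcn-2 rose by 1.23, the value of the median gene. Among the factors that deliver charged tRNA, 2 of 6 (33.3%) were higher and 1 (16.7%) lower on total counts, beside 52.9% and 9.97% of all tested genes. Their median log2 fold change was 0.43, beside 1.23 over all tested genes. The elongation factor genes eef-1A.2 (2.82) and eef-1A.1 (1.56) rose, the mitochondrial factor tsfm-1 (-1.05) fell, and its partner tufm-1 (-0.25) did not pass. Under TMM scaling 1 was higher and 2 were lower, since eef-1A.1 was no longer called and tufm-1 (-1.33) was called lower. The TMM shares over all tested genes were 19.6% and 21.5%. The pair of eef-1A genes is nearly identical in sequence, so the division of reads between them is uncertain.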

How the data were processed

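RNA of dissected intestines was measured in 4 fasted and 4 fed libraries, assigned by their titles. The authors trimmed the reads, aligned them to ce10 and counted reads within annotated exons on the gene's own strand with QuasR. The deposited values are whole-number counts per gene, not normalized, and the table also gives each gene's exon length. The authors scaled to library totals for their log2 values and used edgeR, with no design or filter given in the sources used here. The SMART-seq kit is not stated to keep the strand. The labels call the samples of a group independent biological replicates. No pair of libraries was a duplicate (at least 17.0 chi-square per gene).

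RPM and RPKM were computed from the counts and exon lengths. Genes were filtered with filterByExpr (minimum count 10, total 15) and tested with edgeR 4.0.16 in R 4.3.3 (glmQLFit and glmQLFTest) on library totals without other factors, over all 7379 genes with Benjamini-Hochberg adjustment. A gene could pass the filter through the libraries of a single group. TMM scaling and DESeq2 1.42.0 were alternatives, with the filter, the vitellogenins, the replicate block and left-out libraries. The code was tested on simulated data. Pair ratios used counts plus 0.5 and an exact permutation test. A library's floor of 3 counts was 0.0886 to 0.143 RPM. The floor reflects read counting only, and reads carried no molecular identifiers. The SEs come from the edgeR fits and the SDs from the libraries of a group, so both include variation between libraries.

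Every member is named. Values per library are given for the 6 highest and 6 lowest log2 fold changes, for members called lower under either scaling and for both genes of pairs that did not overlap, and in the other lists for the 2 highest and 2 lowest genes a fold change is given. The members and lists were chosen with earlier results of these data known. Exon overlaps and coordinates are from WBcel235, another assembly name than the ce10 of the counts. No sequences are printed.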

Additional observations from a re-analysis of the deposited data

Results flagged for a closer look

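In 4 of 92 groups of 4 libraries, a single library lay far from the others by Dixon's test, which chance alone gives in about 1 of 20 groups. The aspartyl gene dars-1 had 24.8 RPM in fasted library 3, while the other fasted libraries had 30.7 to 31.1 RPM. The phenylalanyl gene fars-1 had 6.28 RPM in fasted library 2 and 4.79 to 4.96 RPM in the others. The lysyl gene kars-1 had 58.5 RPM in fasted library 1 and 70.1 to 71.9 RPM in the others. The prolyl gene pars-1 had 9.48 RPM in fed library 1 and 8.25 to 8.41 RPM in the other fed libraries. The calls of dars-1, fars-1 and pars-1 held without each of these libraries.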

How the results depend on the processing

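Scaling was the choice with the largest effect. Under TMM, DESeq2, and TMM with the replicate block, the genes called higher over the family were 6, 8 and 5, and lower 3, 3 and 3, with medians of 0.15, 0.14 and 0.17. By class, the cytosolic genes had 4, 4 and 3 higher and 2, 2 and 2 lower, with medians of 0.18, 0.17 and 0.18. The mitochondrial genes had 0, 1 and 0 higher, with medians of 0.026, 0.016 and 0.035. The single genes had 2, 3 and 2 higher and 1, 1 and 1 lower, with medians of 0.22, 0.21 and 0.39. Over all genes 1448, 1748 and 1316 were higher and 1585, 1754 and 1502 lower, with medians of 0.16, 0.15 and 0.18. Of the 25 members called higher on total counts, 6 were also called higher under TMM and 5 under TMM with the block, and none was called in the opposite direction.

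In the same order of settings, 8 members changed sign: cars-1 (-0.26, -0.27, -0.24), ears-1 (-0.23, -0.24, -0.22), ears-2 (-0.058, -0.065, -0.058), kars-1 (-0.53, -0.54, -0.52), nars-2 (-0.64, -0.66, -0.64), sars-1 (-0.89, -0.90, -0.86), sars-2 (-0.22, -0.24, -0.22) and yars-2 (-0.059, -0.068, -0.048).

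Without the vitellogenins in the total, the medians were 0.96 over the family, 1.00 for cytosolic, 0.84 for mitochondrial and 1.03 for single genes and 0.97 over all genes, sars-1 was at -0.086, and 23 members were higher (cars-1 and lars-2 lost). The median of all genes was 1.89 with no filter and 1.35 with a mean of at least 10 counts, while that of the family was 1.215 in both.

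Replicate numbers were shared by the groups, but same-numbered libraries did not deviate together, with correlations of 0.041, 0.087, 0.068 and 0.15 for numbers 1 to 4, and not every library correlated best with its own number. With the replicate block on total counts, 25 members were higher and 1 lower, the median of the single genes was 1.45, and tars-1 was at 0.0065.

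Leaving out each library in turn, the members called higher ranged from 23 to 25, with lars-2 lost in 5 of the 8 fits and iars-2 in the 1 without fed library 4, and iars-1 was the only one lower. The median of the single genes ranged from 1.02 to 1.49 and that of all genes from 1.21 to 1.36. The fold change of tars-1 ranged from -0.15 to 0.15, that of wars-1 from 0.92 to 2.26, and the pair differences of lars-1 over lars-2 from -0.12 to 0.47, of mars-1 over mars-2 from -0.13 to 0.18 and of pars-1 over pars-2 from -0.019 to 0.29. Pairs with a lower ratio in all fasted libraries ranged from 1 to 2. Without fasted libraries 1 and 4, this count was 2, the pair difference of lars-1 over lars-2 was -0.056, the fold change of tars-1 was 0.0026, and 22 members were higher.

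With 5 counts added, the pair difference of rars-1 over rars-2 was 0.0025. For the summed cytosolic over mitochondrial genes, the fasted minus fed difference in log2 ratio was -0.77 per kilobase. It was 0.18 without the highest member of each class, and 0.21 without iars-1, an alternative chosen after seeing the data. Apart from the vitellogenins and iars-1, the causes of these moves were not tested. Depth limits dars-2, fars-2, lars-2, rars-2, sars-2 and wars-1, which had 34 counts or fewer in every fed library.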
